A study of Mus musculus with 2 samples.

Results

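The strongest MEF2A peaks away from promoters that hold no exact MEF2 core are described here. They were taken from the mm9 list of 16839 peaks by their signal, the authors' own value per peak. The 3367 strongest peaks (20% of the list) were kept, then the 3060 of these with a summit over 1 kb from every transcription start site (TSS) of a GENCODE vM1 protein-coding transcript. Of those 3060 distal peaks, 868 held the 8-base core, TA, then 4 bases that are A or T, then TA, somewhere in the peak interval. The AP-1 element TGANTCA, where N is C or G, was present in 673 of them, and 170 held both elements. The remaining 1689 peaks, 55.2% of the strong distal peaks, had neither element on either strand and are called strong coreless peaks. Among the 10165 weaker distal peaks, 6507 (64.0%) also had neither. The strong coreless peaks included 6 of the 20 strongest and 32 of the 100 strongest peaks of the whole list, beside 1689 of the 3367 strongest.

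The data are chromatin immunoprecipitation followed by sequencing (ChIP-seq) with a MEF2A antibody in CH12.LX, an immortalized B cell lymphoma line from a female mouse of strain B10.H-2aH-4bp/Wts. There is 1 group of 2 biological replicates from separate biosamples of this line, with no treatment named, and a control library that was not analysed here. The mm9 list came from both replicates together, so its values carry no replicate spread. RNA was not measured, so the markers of the cell line could not be checked by their level.

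MEF2A is a transcription factor of the MADS-box family that binds DNA as a dimer with the other MEF2 proteins. The palindromic MEF2 consensus is the AT-rich core with a pyrimidine before it and a purine after it. In B cells MEF2 factors are known to act downstream of the B cell receptor, where class IIa histone deacetylases hold them in check, and Mef2c is needed for normal B cell proliferation after receptor stimulation. Transcription factors can also be recruited to DNA through partner factors.

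Many strong coreless peaks carried a MEF2 consensus with a single changed base. The examples are among the strongest peaks with the commonest change, A at core position 8 read as G (A8G), counted from 1 at the first T of the core. Each shows 61 bases centred on the summit on mm9, read 5′ to 3′ on the strand named, with the MEF2-like element in capitals.

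Manba intron, chr3:135180001-135180061, plus strand: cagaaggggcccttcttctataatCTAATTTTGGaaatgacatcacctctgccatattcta
Rap1b upstream, chr10:117347662-117347722, plus strand: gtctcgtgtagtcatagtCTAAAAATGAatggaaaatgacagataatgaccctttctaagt
Nek6 intron, chr2:38396871-38396931, plus strand: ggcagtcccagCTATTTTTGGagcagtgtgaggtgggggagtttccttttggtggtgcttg
Vgll4 intron, chr6:114881352-114881412, minus strand: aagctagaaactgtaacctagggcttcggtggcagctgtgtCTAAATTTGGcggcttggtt
Rnf213 upstream, chr11:119246399-119246459, plus strand: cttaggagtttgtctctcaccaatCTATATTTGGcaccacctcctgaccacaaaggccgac

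The next set shows peaks with no such near-match that still hold the first 6 bases of a MEF2 element, CTATTT, in capitals. They are shown because this piece was the 6-mer that set the strong coreless peaks furthest apart from weaker ones.

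1100001G20Rik upstream, chr11:83550924-83550984, minus strand: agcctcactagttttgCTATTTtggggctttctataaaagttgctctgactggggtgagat
Gnptab intron, chr10:87883579-87883639, minus strand: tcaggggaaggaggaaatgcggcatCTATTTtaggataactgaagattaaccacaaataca
Tnfrsf13b upstream, chr11:60922558-60922618, plus strand: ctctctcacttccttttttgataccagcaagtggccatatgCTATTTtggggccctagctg
Glipr1 intron, chr10:111437687-111437747, minus strand: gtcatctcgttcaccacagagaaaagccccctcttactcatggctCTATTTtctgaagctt
Cysltr2 upstream, chr14:73457682-73457742, minus strand: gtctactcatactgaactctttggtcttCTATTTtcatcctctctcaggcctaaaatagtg
Cmya5 coding exon, chr13:93864279-93864339, minus strand: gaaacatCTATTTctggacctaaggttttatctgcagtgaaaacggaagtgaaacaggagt

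The last set shows elements of other factors in capitals: the octamer piece ATGCAAA at Zfp703 and Vps37b, the composite GGAANNGAA of ETS and IRF factors at Arpc5l, the RUNX element TGTGGTT at Gcap14, and the 10-base NF-kB consensus at Rasgrp3. Most of these peaks also hold MEF2-like sequence, which is not marked. Arpc5l and Gcap14 have a MEF2 consensus with 1 mismatch within 50 bp of the summit, and Rasgrp3 a core with 1 mismatch. The Vps37b and Gcap14 windows hold CTATTT on the other strand.

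Zfp703 upstream, chr8:28073979-28074039, minus strand: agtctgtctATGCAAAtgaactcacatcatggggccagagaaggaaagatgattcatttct
Vps37b intron, chr5:124465159-124465219, minus strand: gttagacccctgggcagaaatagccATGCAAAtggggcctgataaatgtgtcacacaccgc
Arpc5l intron, chr2:38866996-38867056, plus strand: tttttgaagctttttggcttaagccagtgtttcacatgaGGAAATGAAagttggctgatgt
Gcap14 intron, chr14:37745369-37745429, minus strand: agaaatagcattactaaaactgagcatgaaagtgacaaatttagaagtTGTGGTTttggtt
Rasgrp3 intron, chr17:75842567-75842627, minus strand: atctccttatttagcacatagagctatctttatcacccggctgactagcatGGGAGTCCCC

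Signal chose these peaks and is given as a description only. It had a median of 163 over the strong coreless peaks (quartiles 131 and 230), 186 over the 1371 strong distal peaks with a core or AP-1 element, and 54.9 over the 6507 weaker coreless peaks. The weakest strong coreless peak was at rank 3367 with a signal of 110.17, and the first peak outside the limit that met the other criteria was at rank 3369 with 110.14. The strong coreless peak nearest to a TSS lay 1002 bp away, and the most distant strong peak without either element that was left out lay at 993 bp.

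The strongest of them, at rank 2 with a signal of 2181, lay in an intron of Manba, which encodes the lysosomal enzyme beta-mannosidase, 31456 bp downstream of its TSS. The next, at rank 3 with a signal of 1558, lay between genes, 272407 bp from the TSS of Zfp36l1, which encodes a protein that promotes decay of AU-rich mRNAs. Both held the A8G form of the element. The peak at rank 7, with a signal of 1221, lay 202821 bp upstream of Runx1, a transcription factor of blood cell development. A peak with a signal of 940 lay 17669 bp upstream of Tnfrsf13b, which encodes TACI, a receptor of B cells for the survival factors BAFF and APRIL. Lat2, an adaptor of antigen receptor signalling in B cells, had a peak in an intron with a signal of 804, at 1106 bp from its TSS. The chromatin remodelling subunit gene Arid1a had one in an intron, with a signal of 753.

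Over the 20 strongest strong coreless peaks, 10 summits lay in introns, 9 between genes and 1 in a coding exon, that of Cmya5, known as a muscle protein gene. In 15 of the 20 the nearest TSS was over 10 kb away. The other nearest genes among the 20 were 1100001G20Rik (signal 1435), Ccdc9 (1305), Sycp3 (1103, in an intron of Gnptab), Rap1b (928), Gcap14 (923), Glipr1 (896), Zfp703 (882), Cysltr2 (837), Grm8 (832), Grb10 (820), Srl (813), Setbp1 (796) and Serpina3i (728). Several of these genes are better known from other tissues, such as Sycp3 from meiotic chromosomes, Grm8 from glutamate signalling in neurons and Srl from the muscle sarcoplasmic reticulum. Of the 20 peaks, 5 had a MEF2 consensus with 1 mismatch within 50 bp of the summit, and 7 had none of the 10 elements concentrated at the summits, which are given below.

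The GC content of the 100 bp either side of the summit had a median of 46.8% in the strong coreless peaks (quartiles 43.3 and 51.2%), 45.3% in strong peaks with a core or AP-1, and 49.3% in weaker coreless peaks. A GC content of 60% or more was found in 2.49% of the strong coreless peaks, in 1.60% of strong peaks with an element and in 6.22% of weaker coreless peaks. CpG-rich windows, with an observed over expected CpG ratio of at least 0.6 and a GC content of at least 50%, made up 1.54%, 1.75% and 5.32% in the same order of sets. The strong coreless peaks thus lay between the other sets in median GC content and were seldom CpG-rich. These differences were not tested. The rule kept peaks with the AT-rich core out of both coreless sets, which bears on their GC content beside strong peaks with an element. Motif comparisons were also made within strata of GC content, and the calls lost there are named.

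**Figure D1:**
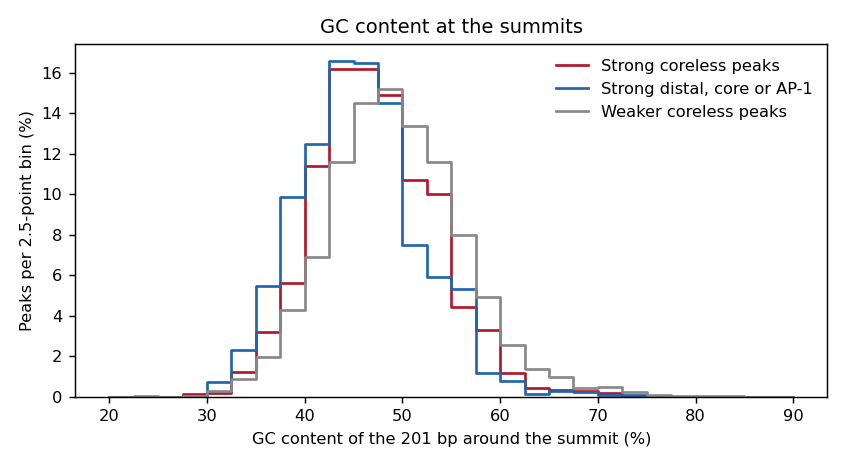
Share of peaks in each 2.5-point bin of GC content of the 100 bp either side of the summit, for 1689 strong coreless peaks, 1371 strong distal peaks with a core or AP-1 element and 6507 weaker coreless peaks. The medians were 46.8%, 45.3% and 49.3%.

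Interval width differed with signal. The median was 219 bp in the strong coreless peaks, 246 bp in strong peaks with an element and 356 bp in weaker coreless peaks, of which 96.6% were exactly 356 bp wide. The rule searched the interval, so it covered fewer bases in the stronger peaks. An exact core lay within 180 bp of the summit but outside the interval in 122 strong coreless peaks (7.22%), and within 100 bp in 30 (1.78%). With the sequence rule applied to a fixed 100 bp either side of the summit, an alternative chosen after seeing the data, 1709 peaks were selected, of which 1627 were shared.

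Of the strong coreless peaks, 873 (51.7%, 95% Wilson interval 49.3 to 54.1%) lay between genes, 790 (46.8%) in introns and 26 (1.54%) in exons. Exons held 3.41% of weaker coreless peaks, a difference of -1.87 percentage points (95% interval -2.55 to -1.05, Fisher's exact test adjusted over 8 shares, p = 1.73e-04). This call was lost when distal meant over 5 kb (1.61% against 2.82%). The shares in introns, between genes and within 1 kb of a non-coding transcript's TSS (2.31% against 2.54%) did not pass the test against either set. The median distance to the nearest TSS was 23850 bp in the strong coreless peaks, 27179 bp in strong peaks with an element and 20463 bp in weaker coreless peaks.

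Some strong coreless peaks had a second peak close by. Another summit lay within 1 kb in 16.1% of them (Wilson interval 14.4 to 17.9%), in 10.9% of strong peaks with an element and in 12.8% of weaker coreless peaks. A peak with a core or AP-1 element lay within 2 kb of 189 strong coreless peaks (11.2%, interval 9.77 to 12.8%), of 10.6% of strong peaks with an element and of 8.36% of weaker coreless peaks.

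The sequence within 50 bp of the summit was compared with that 51 to 100 bp away in the same peaks, which asks whether an element sits where the signal is highest. Of 38 motifs, 10 (26.3%) were more frequent at the summit and 1 (2.63%) less frequent, by an exact McNemar test adjusted over the 38. The MEF2 consensus with exactly 1 mismatch was present at 484 summits (28.7%, Wilson interval 26.5 to 30.9%) against 238 flanks (14.1%, exact McNemar test, adjusted p = 5.18e-24). The core alone with 1 mismatch, a looser pattern, was present at 45.9% of summits against 28.1% of flanks (exact McNemar test, adjusted p = 2.33e-27). The exact core was excluded by the rule and is not counted.

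Elements of some factors known in B cells were also concentrated at the summits. The octamer piece ATGCAAA, bound by OCT factors, was at 177 summits (10.5%) against 98 flanks (5.80%, exact McNemar test, adjusted p = 8.04e-06). The composite GGAANNGAA, on which PU.1 or SpiB binds beside IRF4 or IRF8, was at 175 summits (10.4%) against 87 flanks (5.15%, exact McNemar test, adjusted p = 1.72e-07). The RUNX element TGTGGTT was at 177 summits (10.5%) against 80 flanks (4.74%, exact McNemar test, adjusted p = 5.50e-09). The IRF repeat GAAANNGAA (8.82% against 5.15%), GAAATGA, which joins pieces of an IRF and an AP-1 element (7.05% against 3.20%), and the NF-kB consensus (9.95% against 6.69%) were further members of this group. NFAT's TGGAAAA (5.57% against 3.61%) and TGAATCA, the AP-1 element with a changed centre (3.02% against 1.48%), were the last. Other B cell factor elements did not pass this test. TCCCNNGGG of EBF1 was at 89 summits against 76 flanks, CAGGTG of E2A at 10.5% of summits against 12.0% of flanks, TGGGAA of Ikaros at 9.65% against 9.18%, GCGTGAC of PAX5 at 0.474% against 0.237%, and GAGGAAG of PU.1 and SpiB at 8.11% against 6.04%. KLF/SP's GGGCGGG was less frequent at the summits (0.888% against 2.01%, exact McNemar test, adjusted p = 0.0279). Among the strongest 10% of the list the calls for the octamer piece, NFAT, TGAATCA and GGGCGGG were lost, and that for NFAT was also lost when distal meant over 5 kb. The comparison of 25 bp with 26 to 50 bp called only both MEF2 forms and the ETS and IRF composite.

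**Figure D2:**
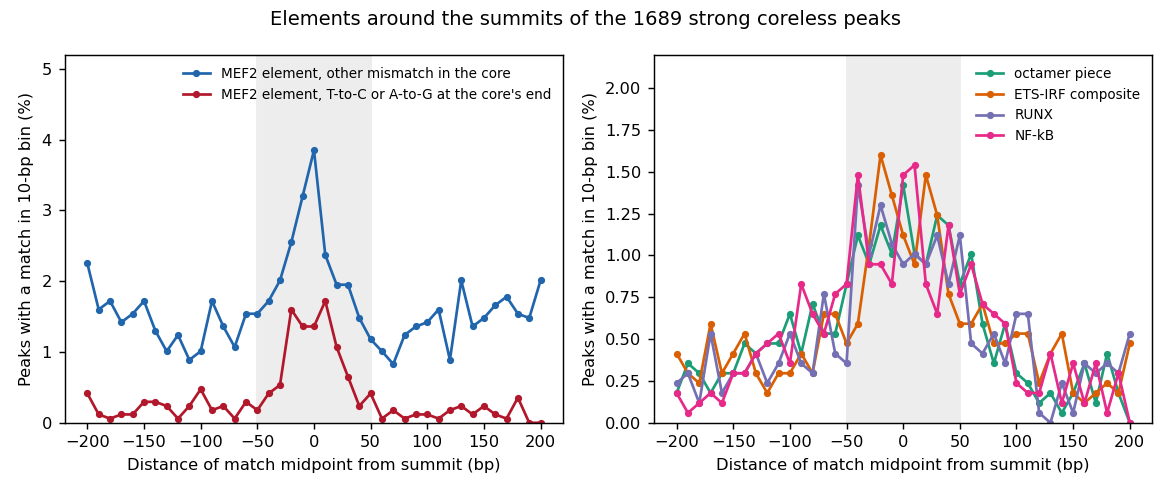
Share of the 1689 strong coreless peaks with a match whose midpoint falls in each 10-bp bin around the summit, for 2 classes of MEF2 consensus with 1 mismatch (left) and 4 other elements (right), with the 50 bp either side of the summit shaded. The curve of other mismatches reached 3.85% in the bin at the summit and was at most 2.25% outside the shaded zone. That of the change at the core's end was at most 1.72% inside the shaded zone and 0.474% outside it.

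Taken as a set, at least 1 of the 10 elements was within 50 bp of 1254 summits (74.2%), while 840 peaks (49.7%) had at least 1 in the flank. The set was chosen on this same difference, so it is given as a description. The other 435 strong coreless peaks (25.8%) had none of them near the summit; their median signal was 154, against 165 in those with an element, and their median GC content was 49.8% against 45.8%. Among them were the peaks near Ccdc9, Tnfrsf13b and Glipr1, of which the last 2 held the piece CTATTT shown above.

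Against the weaker coreless peaks, which also lack the core and AP-1, 8 of the 38 motifs (21.1%) were more frequent in the strong coreless peaks and 2 (5.26%) less frequent, by Fisher's exact test adjusted over the 38. The MEF2 consensus with 1 mismatch was in 28.7% of strong against 15.6% of weaker coreless peaks, an odds ratio of 2.17 (95% interval 1.92 to 2.46, Fisher's exact test, adjusted p = 4.44e-31). It stood at 1.84 within strata of GC content. The octamer piece was in 10.5% against 7.16% (odds ratio 1.52, adjusted p = 1.13e-04), the RUNX element in 10.5% against 7.51% (1.44, adjusted p = 8.74e-04) and the ETS and IRF composite in 10.4% against 7.47% (1.43, adjusted p = 0.00104), all by Fisher's exact test. These 3 calls held within GC strata, but among the strongest 10% of the list those of the octamer piece and the RUNX element were lost, and the RUNX call was also lost within 25 bp (5.27% against 4.13%). GAAATGA (7.05% against 5.21%), TTCNNNGAA, a STAT element (5.62% against 4.12%), and TGAATCA (3.02% against 1.89%) also passed, and all 3 calls were lost within GC strata. The TGAATCA call was lost under all 7 alternatives, that of GAAATGA also within 100 bp, and that of the STAT element also with AP-1 left out of the rule. The other motif called was the core with 1 mismatch.

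CTCF, the insulator protein, had its consensus in 4 strong coreless peaks (0.237%) against 149 weaker ones (2.29%), an odds ratio of 0.114 (95% interval 0.0444 to 0.290, Fisher's exact test, adjusted p = 7.08e-10). GGGCGGG was in 0.888% against 1.92% (Fisher's exact test, adjusted p = 0.0160), a call lost within GC strata, within 25 bp and among the strongest 10%. The NF-kB consensus, concentrated at the summits, was about as frequent in strong as in weaker coreless peaks (9.95% against 9.48%, difference 0.465 points, 95% interval -1.06 to 2.13).

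Against the 1371 strong distal peaks with a core or AP-1 element, 4 motifs (10.5%) were more frequent in the strong coreless peaks and 3 (7.89%) less frequent. The NF-kB consensus was in 9.95% against 5.84% (odds ratio 1.78, Fisher's exact test, adjusted p = 3.19e-04), and the ETS and IRF composite in 10.4% against 6.13% (1.77, adjusted p = 3.19e-04). The RUNX element (10.5% against 7.22%) and TCCCNNGGG of EBF1, a factor of B cell identity (5.27% against 2.99%), had adjusted p = 0.0132 each by Fisher's exact test. The EBF1 call was lost within GC strata, both were lost among the strongest 10% and within 25 bp, and the RUNX call was also lost when distal meant over 5 kb. When AP-1 was left out of the rule, the NF-kB call alone was left of the 4. Lower were AGATAA of GATA factors (3.37% against 5.40%) and TAATTA of homeodomain factors (1.36% against 3.72%), which shares letters with the excluded core. The AGATAA call was lost within GC strata, within 25 bp, within 100 bp and among the strongest 10%. The MEF2 consensus with 1 mismatch, the other lower motif, was in 28.7% against 36.0%, a description only, since the rule bears on this element. In strong peaks with an element such a match can be an exact core with a changed outer base, which the rule bars in strong coreless peaks. Changes inside the core are given for core positions 1 or 8, 2 or 7, 3 or 6, and 4 or 5. They were in 11.0, 13.6, 2.61 and 3.67% of strong coreless peaks, against 7.08, 10.2, 2.26 and 2.41%, and were not tested.

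**Figure D3:**
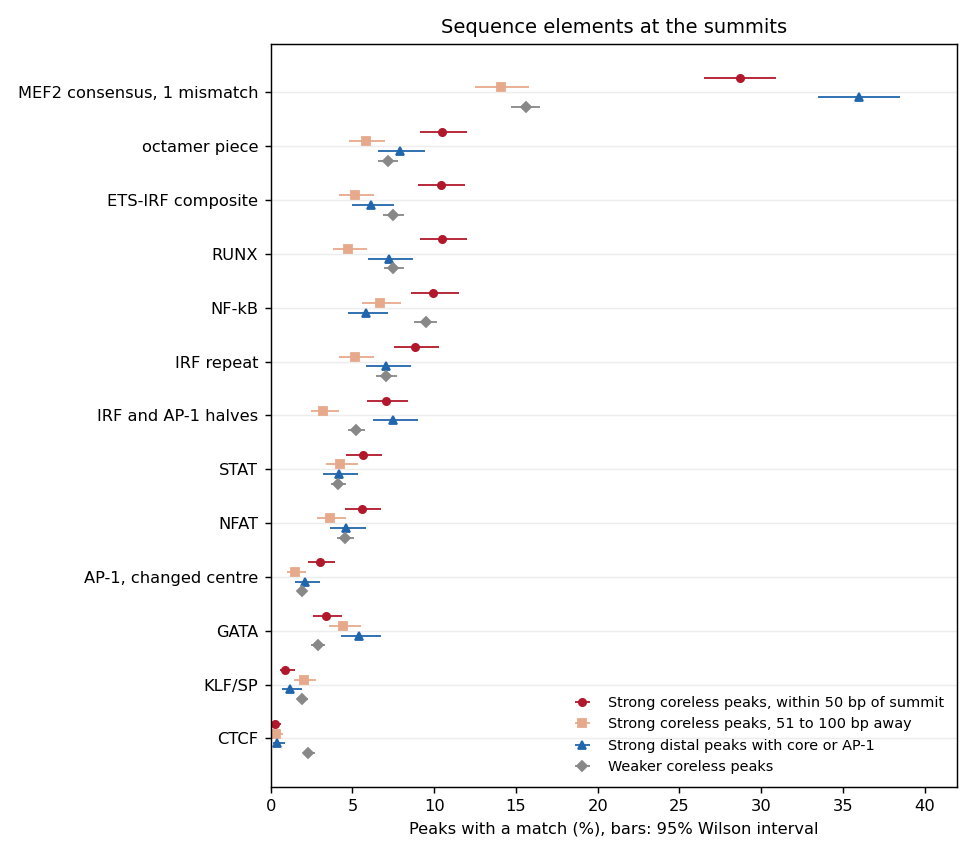
Share of peaks with each element, with 95% Wilson intervals over peaks: strong coreless peaks at the summit (circles) and 51 to 100 bp away (squares), strong distal peaks with a core or AP-1 element (triangles) and weaker coreless peaks (diamonds), within 50 bp of the summit in both other sets. The MEF2 consensus with 1 mismatch was at 28.7% of strong coreless summits against 14.1% of their flanks, and CTCF was highest in weaker coreless peaks.

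The mismatch inside the core was not spread evenly. Matches were grouped by the base changed, with core positions 8 to 5 counted as their mirror 1 to 4 because the element is palindromic. The class T1C, read as A8G on the other strand, was at 157 summits (9.30%, Wilson interval 8.00 to 10.8%) against 30 flanks (1.78%), a ratio of 5.23 (exact McNemar test adjusted over 10 classes, p = 2.15e-22). The median distance of these elements from the summit was 15.5 bp. They were in 4.03% of weaker coreless peaks and in 4.89% of strong peaks with an element. Both shares are descriptions only, and the sequence rule bears on the comparison with strong peaks with an element.

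In all, 5 of the 10 classes (50%) were more frequent at the summit. A2T, or T7A, was at 119 summits against 55 flanks (7.05% against 3.26%, exact McNemar test, adjusted p = 3.17e-06), and A2G, or T7C, at 72 against 36. The rarer W3G, or W6C, was at 32 summits against 7 flanks, and W4G, or W5C, at 43 against 18, where W is A or T. T1A and T1G, the other changes of the outer base, were at 19 summits against 15 flanks and at 10 against 16, and neither passed. The comparison of 25 bp with 26 to 50 bp called T1C alone. The commonest T1C element, written with the change at position 8, was CTATTTTTGG in 27 strong coreless peaks (1.60%) against 0.630% of weaker ones, followed by TTATTTTTGG in 18 and CTAAAAATGG in 14. The commonest T7A element was CTATTTTAAG, in 21 (1.24% against 0.538%).

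All 7-mers, each counted with its reverse complement, were tested next, without a motif list. Of 8192 tested, 63 (0.769%) were more frequent in strong than in weaker coreless peaks, 32 (0.391%) were less frequent, and 62 (0.757%) were more frequent at the summit than in the flank, with 43 in both higher groups. The 7-mer CTATTTT led both tests: 250 strong coreless peaks (14.8%) had it, against 6.64% of weaker ones (odds ratio 2.44, Fisher's exact test, adjusted p = 2.79e-20) and 3.02% of flanks. GCTATTT (10.1% against 4.06%), TCTATTT (11.6% against 5.15%) and CTATTTC (7.99% against 3.27%) came next. Of the 63, 31 fit part of the MEF2 consensus with at most 1 mismatch, as 485 of all 8192 do. CG was contained in 2760 of all 8192 (33.7%), in none of the 63 and in 13 of the 32 lower ones. Within GC strata 21 higher 7-mers were called, all among the 63, and none lower.

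Those leading 7-mers share the 6 letters CTATTT, which ranked first of 2080 when 6-mers were tested. CTATTT was at 473 summits of strong coreless peaks (28.0%, Wilson interval 25.9 to 30.2%), against 834 of the weaker ones (12.8%; Fisher's exact test, adjusted p = 1.59e-43) and 7.70% of their own flanks (exact McNemar test, adjusted p = 7.66e-50). In strong peaks with an element it was at 33.7%. Of the 1205 strong coreless peaks with no 1-mismatch consensus near the summit, 275 (22.8%) had CTATTT, against 8.99% of such weaker coreless peaks. Either pattern was present in 759 strong coreless peaks (44.9%) and in 23.2% of weaker ones. This piece was chosen for description after the 7-mer values were seen.

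The 3 bases that follow CTATTT, core positions 6 to 8, were then tallied as a description. G stood at position 8 in 55.9% of the 506 copies near the summits, in 27.4% of the 135 copies in the flanks and in 45.4% of copies in weaker coreless peaks. C or T stood there in 4.35% and 6.32% of copies at the summits, against 16.3% and 20.7% in the flanks. An exact core after this piece is barred by the rule, which lowers A at position 8. The commonest endings were TTG in 66 copies, CTG in 59 and TGG in 45, against 8, 3 and 6 in the flanks. The 8-mer CTATTTCT, which ranked first of 32896, was in 82 strong coreless peaks (4.85%) against 1.48% of weaker ones and 0.474% of flanks.

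The shares of peaks with an element are described by signal among the strong coreless peaks over 5 bins of 337 or 338 peaks. In order of rising signal, the MEF2 consensus with 1 mismatch was in 22.0, 22.8, 27.5, 32.0 and 39.1% of peaks. The T1C class was in 7.42, 3.25, 7.99, 11.5 and 16.3%. The RUNX element was in 13.6, 10.9, 10.1, 8.88 and 8.88%, and the ETS and IRF composite in 10.1, 9.76, 8.88, 11.2 and 11.8%. Median interval width also differed between the bins, at 356, 165, 178, 218 and 283 bp from the lowest up, as did median GC content, at 47.8, 47.8, 47.3, 46.3 and 45.8%. Their part in these shares was not tested.

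**Figure D4:**
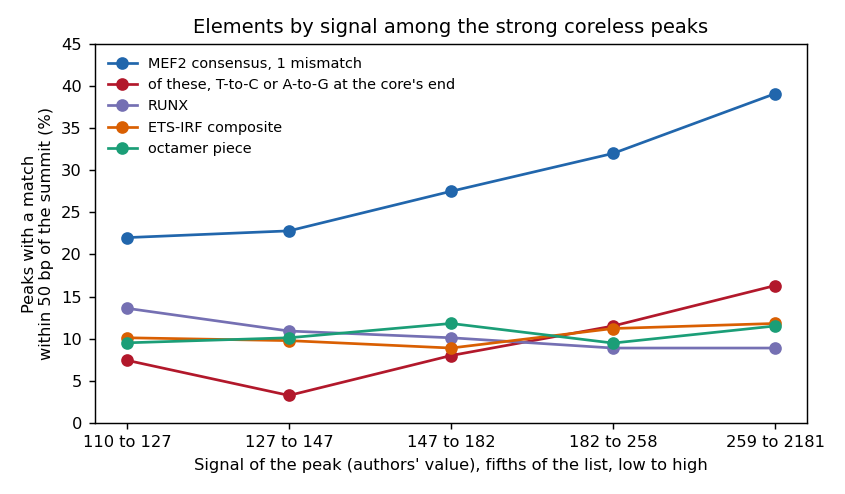
Share of strong coreless peaks with each element within 50 bp of the summit, in 5 bins of their signal (the authors' value) from low to high. The MEF2 consensus with 1 mismatch was in 22.0% of the lowest and 39.1% of the highest bin, while the RUNX element was in 13.6% and 8.88%.

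The strong coreless peaks were nearest to 1279 of 22238 protein-coding genes (5.75%). Of these genes, 1003 were nearest to 1 such peak, 192 to 2 and 84 to 3 or more. Strong peaks with an element were nearest to 1100 genes (4.95%) and weaker coreless peaks to 3804 (17.1%). The genes of both strong sets overlapped in 351, which is 27.4% of the genes of strong coreless peaks and 31.9% of the genes of strong peaks with an element. Genes in sparse regions are nearest to more peaks by position alone, and the distances are given for that reason.

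The most strong coreless peaks fell nearest to Myc, Atp2a3, Cxcr4 and Ebf1, with 6 each. All peaks of the list nearest to these genes numbered 40, 10, 24 and 30 in that order. Over the whole list, 1689 of 16839 peaks were strong coreless peaks. The 6 near Myc, the growth-promoting transcription factor, had signals from 113 to 572 and lay 177408 to 820085 bp from its TSS. Those near Atp2a3, a calcium pump of the endoplasmic reticulum in blood cells, were within 46403 bp of each other. They had signals from 134 to 397 and lay 2733 to 43670 bp from the TSS of Atp2a3. Those of the chemokine receptor Cxcr4 had signals from 123 to 277 and lay 8381 to 194749 bp from its TSS. Those of Ebf1 had signals from 117 to 275 at 45563 to 390091 bp. Foxn3, a forkhead repressor, had 5 of its 16 peaks among them, at 12638 to 176252 bp. Mef2c itself had 5 of 11, with signals from 144 to 345 at 15116 to 392288 bp, and some further genes also had 5.

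Genes of the B cell receptor pathway were often nearest to a strong coreless peak, at 16 of 21 listed (76.2%, Wilson interval 54.9 to 89.4%), beside 5.75% of all genes. Of the same 21, 8 were nearest to a strong peak with an element and 17 to a weaker coreless one. The strongest peak was in Pik3ap1, which encodes the adaptor BCAP that links the receptor to PI3-kinase, with a signal of 588. Rasgrp3, an activator of Ras downstream of diacylglycerol, followed at 587. Prkcb, a protein kinase C gene of the same pathway, had one of 481 in an intron at 28337 bp. Plcg2, Blnk, Lyn, Malt1 and Inpp5d were also among the 16.

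Factors of blood cell development were next, at 17 of 29 (58.6%), while 18 of the 29 were nearest to a strong peak with an element. With a TSS within 10 kb of a strong coreless peak, 1 of the 29 was left (3.45%). Besides Runx1, Runx2 had a peak with a signal of 605, Bhlhe41 one of 304 and Bhlhe40 one of 278. Of B cell identity genes 8 of 24 (33.3%) were nearest to a strong coreless peak, led by the inhibitory receptor Cd22 (390), the OCT coactivator Pou2af1 (373), Foxo1 (360) and the receptor chain Cd79b (350). Immediate early genes, which respond first to stimulation, counted 11 of 28 (39.3%), led by Zfp36l1, Egr3 (700), Ier2 (603, at 1187 bp from its TSS) and Myc (572). Of the MEF2 factors and class IIa deacetylases, 4 of 8 were hit, namely Mef2c (345), Mef2b (159), Mef2d (148) and Hdac5 (121).

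Germinal centre and plasma cell genes counted 6 of 18 (33.3%), among them Cxcr4 at 277, Txndc5 at 198 and Igj, the J chain, at 145. Chromatin regulators counted 8 of 22, led by Arid1a, Ep300 (274), Tet2 (197) and Kdm2b (174). Cytokine receptor and JAK-STAT genes counted 8 of 27, led by Socs1 (241), Il2rb (223), Il6ra (163) and Socs3 (152). NF-kB pathway genes counted 6 of 22, led by Nfkbiz (299), Rel (262), Nfkb1 (239) and Nfkbia (208). The BCL2 family and caspases counted 5 of 20, among them Bcl2 (270), Pmaip1 (210) and Mcl1 (147).

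Lymphocyte migration counted 3 of 20 (S1pr1 at 275, Ccr7 at 226, Itga4 at 136), actin cytoskeleton genes 3 of 23 (Rac2 at 259, Elmo1 at 251, Arhgap15 at 154) and MHC class II and costimulation 2 of 18 (Ciita at 315, Icosl at 115). T cell genes counted 6 of 22, led by Lck (366), Cd4 (196), Lef1 (194) and Tbx21 (166). Myeloid genes counted 1 of 19 (Marco, 111), striated muscle genes 1 of 28 (Tnnt2, 317) and neuronal genes 0 of 21. Over all 17 lists, 105 of 368 genes (28.5%) were nearest to a strong coreless peak. Strong peaks with an element were nearest to as many or more genes than strong coreless peaks in several of these lists, with 12 immediate early genes, 7 of the BCL2 family list, 5 of lymphocyte migration and 4 of the MEF2 list. Counting instead genes with a TSS within 10 kb of such a peak gave 47 (12.8%), beside 2.14% of all genes, and 7 of the 21 receptor pathway genes.

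**Figure D5:**
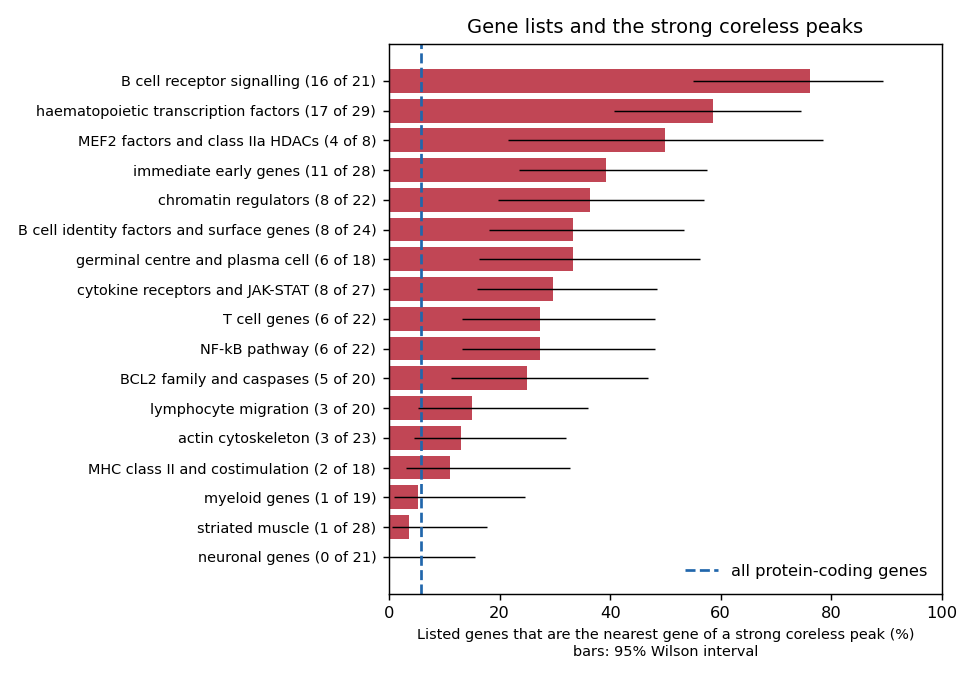
Share of the genes in each of 17 lists that were the nearest protein-coding gene of a strong coreless peak, with 95% Wilson intervals over genes; the dashed line marks 5.75%, the share over all protein-coding genes. B cell receptor signalling stood at 16 of 21 and neuronal genes at 0 of 21.

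The replicates have lists of their own on mm10 only, so they were compared by gene. In 552 genes the strongest mm9 peak inside the gene was a strong coreless peak, and 545 of these (98.7%) were matched by symbol to RefSeq. Of the 545, 537 (98.5%) held a peak of the reproducible set of 31497 called from both replicates, against 34.4% of all 21896 genes. Among as many of the strongest intervals of each replicate alone, replicate 1 had one in 535 (98.2%, against 35.8% of all genes) and replicate 2 in 538 (98.7%, against 34.4%). The genes were chosen for a strong peak in a list made from these same replicates, which largely fixes a high share, so the shares over all genes are background and nothing is read from the difference. The strongest interval inside Manba ranked 2 in replicate 1 and 19 in replicate 2, that inside Gnptab 20 and 26, that inside Lat2 72 and 21, and that inside Arid1a 69 and 20.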

How the data were processed

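MEF2A ChIP-seq peaks of CH12.LX cells were used as the authors deposited them. The signal per peak is the authors' value; per the text deposited with the files the mm9 list was made from alignments of both replicates, and the mm10 lists were called per replicate and on both together. The sources used here name neither peak caller nor aligner. Signal was used to rank peaks within a list. The depth of each library is unknown, so intervals reflect counting of peaks or genes alone. Peaks that lie close together are not independent.

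Sequence and genes came from NCBIM37 (mm9) and GENCODE vM1, and mm10 lists were joined by gene symbol to RefSeq of GRCm38. Coordinates are 1-based and none were converted. A motif counted when its midpoint lay within 50 bp of the summit on either strand. Shares of peaks were compared by two-sided Fisher's exact tests, zones of the same peak by two-sided exact McNemar tests, and GC strata of 5 points by Cochran-Mantel-Haenszel tests, with Benjamini-Hochberg adjustment and a threshold of 0.05. Tests across motifs and 7-mers were tested on simulated data at the same set sizes. In these, all planted motifs and 7-mers were called, as were 3 other 7-mers, which overlap the planted ones. The simulated sets shared the same GC content, so they could not show calls that come from a difference in GC content. With 1 group, no test across replicates was possible, so p-values describe peaks, not cultures. The peaks, motifs and gene lists were chosen with earlier results of these data known.

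Genes named are the nearest (and host) genes of the 20 strongest strong coreless peaks, the strongest with each element, up to 4 per list, and those nearest to most peaks. Some genes that this rule names are not reported here. Plcg2, Blnk, Lyn, Malt1, Inpp5d, Nek6, Vgll4, Rnf213 and Vps37b were chosen after their values were seen. The tools were Python 3.11.15, NumPy 2.4.6, pandas 2.3.3, SciPy 1.17.1, pysam, samtools and matplotlib 3.10.9.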

Additional observations from a re-analysis of the deposited data

How the results depend on the processing

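Alternatives were another window, flank, signal limit, distance limit, word length, gene assignment, GC strata and AP-1 left out of the rule. The sequence rule over a fixed window was chosen after seeing the data. The MEF2 consensus with 1 mismatch was called under every alternative run against weaker coreless peaks and flanks, and the T1C class under every one run against flanks. It was not tested against weaker peaks.

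Higher motifs against weaker coreless peaks numbered 8, but 5 among the strongest 10% and 5 within GC strata. Against strong peaks with an element they numbered 4, but 2 within 25 bp, 2 among the strongest 10% and 1 without AP-1 in the rule. At the summit they numbered 10, but 3 for 25 bp against 26 to 50 bp, where the log2 ratio of summit to flank reversed for the IRF repeat (-0.0187), the RUNX element (-0.0319) and TGAATCA (-0.167); the cause was not tested. For 7-mers at the summit the 62 became 9 in that comparison, 135 against a flank 50 bp further out and 38 among the strongest 10%. The 63 higher 7-mers became 102 with 6-mers, 36 with 8-mers, 21 within GC strata and 41 among the strongest 10%, and the 32 lower ones became 94, 3, 0 and 3. The words tested numbered 8192 7-mers, 2080 6-mers and 32896 8-mers, so counts of different word lengths are not directly comparable. The 5 mismatch classes became 1 for 25 bp against 26 to 50 bp. The 1 annotation share called became 0 when distal meant over 5 kb. The 105 listed genes (28.5%, beside 5.75% of all genes) became 47 with a TSS within 10 kb (12.8%, beside 2.14%). With the strongest 10% they became 62 (16.8%, beside 3.06%). Genes on mm10 ranged from 98.2% to 98.7% when either replicate was left out, a high share that the choice of genes largely fixes. Of 192 alternatives for single motifs, classes and shares, 139 kept their direction and call, 50 kept the direction alone and 3 reversed; fewer peaks were tested among the strongest 10%.

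No paired analysis was possible because the series has 1 group. Leaving out repeat-masked peaks was not run, as the reference used here is not soft-masked. Read depth is unknown, so no limit of detection can be given.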

Other observations

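The share of strong distal peaks that held neither element differed between chromosomes, from 47.3% on chromosome 10 (87 of 184) to 66.0% on chromosome 7 (68 of 103) and 70.6% on chromosome X (12 of 17). On chromosome 11, which had the most strong distal peaks, it was 64.9% (237 of 365). These differences were not tested.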
